A study of Homo sapiens with 12 samples.

Results

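The genes described here are 9 of the 38516 genes measured by RNA sequencing in 2 established cell lines of human esophageal squamous cell carcinoma, KYSE150 and KYSE510. They are 6 metallothionein genes (MT2A, MT1E, MT1F, MT1G, MT1M and MT1X), the long non-coding gene AC026461.1 that overlaps MT1X (its GENCODE name, listed in the table under a clone name), the transcription factor gene MTF1 and the zinc exporter gene SLC30A1. The set was chosen by the measured RPKM of silenced and control libraries: MT2A was higher after silencing in KYSE150, and AC026461.1 was higher in both lines. The values that compare silenced with control cells are therefore given as a description, with no p-value for these genes, and the comparison between the control lines, which the choice did not use, is tested.

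Each line had 3 control libraries and 3 libraries labelled as silenced for HCP5, a long non-coding RNA gene, so the 4 groups were KYSE150 control, KYSE150 silenced, KYSE510 control and KYSE510 silenced. All cells were grown in RPMI-1640 medium with 10% FBS, and total RNA was extracted with TRIzol. The silencing reagent, the time after silencing and the zinc content of the medium are not spelled out in the sources used here, and the labels name no metal treatment. Sample titles begin with shc for controls and sh4 for silenced libraries of both lines. All silenced libraries thus carry the same label, so loss of HCP5 and another effect of the reagent cannot be told apart. Each group is 1 cell line with no stated separate cultures, so p-values measure the spread between these libraries, which may be technical.

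Metallothioneins are small, cysteine-rich proteins of the cytoplasm that bind zinc and copper, and also cadmium, through the sulfur atoms of their cysteines. When free zinc rises, the zinc-finger protein MTF1 binds metal response elements in the promoters of the metallothionein genes and of SLC30A1, which encodes the ZnT1 exporter of the plasma membrane. Glucocorticoids and oxidative stress are also known to raise metallothionein transcripts, and MT2A is the most abundant isoform in many human tissues.

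The 6 metallothionein genes lie within the same cluster on chromosome 16 (GRCh38). MT2A is at 56608199 to 56609497, MT1E at 56625475 to 56627112, MT1M at 56632233 to 56633986, MT1F at 56657694 to 56660698 and MT1X at 56682424 to 56684196, all on the plus strand, and MT1G is on the minus strand at 56666731 to 56668065. AC026461.1 (GENCODE release 29, ENSG00000259827.1) starts inside MT1X and runs from 56682470 to 56687807 on the plus strand. MTF1 (37809567 to 37859620) and SLC30A1 (211571568 to 211578742) are on the minus strand of chromosome 1.

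The coding sequences of the 6 metallothioneins, 183 bases each without the stop codon, were 88.5% to 95.1% identical over the 15 pairs. The second exon shows this likeness, which bears on how well short reads can be told apart between these genes. It is 66 bases long, wholly coding, and holds 7 cysteine codons in each gene. The 4 expressed metallothioneins are printed 5′ to 3′ from GENCODE release 29 transcripts on GRCh38, with capitals at bases that differ from MT2A.
MT2A: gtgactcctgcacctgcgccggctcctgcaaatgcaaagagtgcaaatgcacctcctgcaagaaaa
MT1E: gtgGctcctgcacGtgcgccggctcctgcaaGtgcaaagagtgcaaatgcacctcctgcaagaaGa
MT1F: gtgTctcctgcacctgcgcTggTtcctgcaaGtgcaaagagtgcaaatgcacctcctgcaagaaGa
MT1X: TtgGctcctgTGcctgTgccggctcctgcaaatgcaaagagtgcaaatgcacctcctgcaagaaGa

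These exons are at 56608992 to 56609057 in MT2A, 56626466 to 56626531 in MT1E, 56658675 to 56658740 in MT1F and 56683165 to 56683230 in MT1X. MT1E differs from MT2A at 4 of these bases, MT1F at 5 and MT1X at 6, and the longest capital-free stretch, near the 3′ end, is common to all 4. AC026461.1 holds the whole MT1X exon. The 50-base words of each gene were looked for in transcripts of other metallothionein genes and pseudogenes, within or outside the 6. Of these words, 4.24% in MT2A, 7.10% in MT1E, 3.27% in MT1F, 8.28% in MT1X, 9.87% in MT1M and 16.5% in MT1G also occurred there. No 100-base word was shared. The read length is not given in the sources used here, so the part of the reads that could move between these genes cannot be stated.

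The promoters of MT2A and MT1X are printed to show the metal response elements that MTF1 is known to bind. The 250 bases before the RefSeq start (GRCh38.p14) are given, because MT2A and MT1X had higher levels in the silenced libraries of both lines. Capitals mark matches to the metal response element cores TGCACNC and TGCGCNC on either strand, and adjoining matches can overlap. MT2A (chr16:56608334-56608583, plus strand) held 7 matches, the first starting 246 bases before the start site.
MT2A promoter: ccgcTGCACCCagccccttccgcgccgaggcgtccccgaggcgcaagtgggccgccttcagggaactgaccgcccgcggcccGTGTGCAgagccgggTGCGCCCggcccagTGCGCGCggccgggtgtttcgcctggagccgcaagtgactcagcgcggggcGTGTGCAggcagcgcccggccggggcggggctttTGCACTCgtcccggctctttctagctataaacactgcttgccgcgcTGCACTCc
MT1X promoter: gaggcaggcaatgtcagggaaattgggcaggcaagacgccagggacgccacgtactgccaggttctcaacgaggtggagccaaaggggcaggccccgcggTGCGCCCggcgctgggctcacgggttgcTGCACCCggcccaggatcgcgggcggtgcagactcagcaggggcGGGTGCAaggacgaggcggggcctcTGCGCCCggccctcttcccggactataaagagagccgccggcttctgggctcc

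MT1X (chr16:56682220-56682469, plus strand) held 4 matches. Of the 35116 promoters in the RefSeq table, 0.0313% held 7 or more and 0.37% held 4 or more. MT1H, a gene of the same cluster outside the set, held 8 matches and had 1 read over the 12 libraries. SLC30A1 (chr1:211579162-211579411, minus strand) held 1, where 24.8% of promoters held 1 or more, and MTF1 (chr1:37859593-37859842, minus strand) held 0, as did 75.2% of promoters. The table gave promoters for 4 of the 9 genes, and not for MT1E, MT1F, MT1G, MT1M or AC026461.1. A match describes letters in this window and is not a binding site.

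Values are RPKM, the reads of a gene scaled to its exon length and to all reads assigned to genes in the library. Libraries held 20035025 to 28202422 such reads, and in KYSE150 every silenced library (26281327 to 28202422) was deeper than every control (20035025 to 22700935), whose part in the results below was not tested. HCP5 itself averaged 0.770 RPKM in controls and 0.437 after silencing of KYSE150, and 1.39 and 0.801 in KYSE510. Its groups did not overlap in KYSE150. In KYSE510 they did, with controls at 0.914 to 1.85 and silenced libraries at 0.505 to 0.951. HCP5 had 26 to 147 reads a library. The squamous markers KRT5, KRT14, KRT6A, KRT17, TP63 and CDH1 were present in all groups. Their summed level spanned 554 to 1177 RPKM over KYSE150 controls and 859 to 2237 over its silenced libraries, against 656 to 1201 and 853 to 2030 for KYSE510. The median log2 change of these 6 markers was 0.69 in KYSE150 and 0.51 in KYSE510. None passed limma's adjusted threshold in either line. With a replicate block 5 passed in KYSE150, where 6.70% of all genes did, and 1 in KYSE510, where 0.112% did. Values were above 0 for 6 of 6 markers in KYSE150 and 5 of 6 in KYSE510, and their part in the values of MT2A was not tested. The 10 markers of blood, endothelial, stromal and muscle cells summed to 0.428 to 2.06 RPKM over all libraries, with PTPRC and DCN at 0 in KYSE150 controls.

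MT2A was by far the most abundant metallothionein transcript in both lines, and its level was roughly doubled in the silenced libraries of each. KYSE150 control replicates 1, 2 and 3 held 498, 442 and 614 RPKM, and silenced replicates 1, 2 and 3 held 1333, 972 and 1079. KYSE510 controls held 67.1, 50.2 and 47.3, and the silenced libraries 109, 103 and 131. In each line every silenced library lay above every control, and the lowest KYSE150 control lay above the highest KYSE510 silenced library. The KYSE150 mean was 518 ± 87.7 RPKM without and 1128 ± 185 with silencing (SD, n = 3), a ratio of 2.18. The KYSE510 mean was 54.9 ± 10.7 without and 114 ± 14.4 with silencing (SD, n = 3), a ratio of 2.09.

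Between same-numbered libraries the MT2A ratio lay between 1.76 and 2.67 for KYSE150 and between 1.63 and 2.77 for KYSE510. On the log2(RPKM + 0.5) scale KYSE150 changed by 1.12 (SE 0.17) and KYSE510 by 1.06 (SE 0.17), beside medians over all genes of 0.08 and -0.02. The KYSE510 change minus the KYSE150 change was -0.06 (SE 0.24), so the log2 changes lay within 1 SE of each other. Ordered by mean RPKM over all genes of the table, MT2A stood at rank 83 in KYSE150 controls and rank 29 in silenced libraries, and at ranks 883 and 384 in KYSE510. Its reads were 0.0574% to 0.0798% of a KYSE150 control library and 0.126% to 0.173% of a silenced one. In KYSE510 these shares were 0.00614% to 0.00872% and 0.0134% to 0.0170%. With 1649 to 45499 MT2A reads in each library, counting error was small beside the spread between replicates. In bulk RNA, more cells with MT2A and more MT2A RNA in each cell cannot be told apart.

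**Figure D1:**
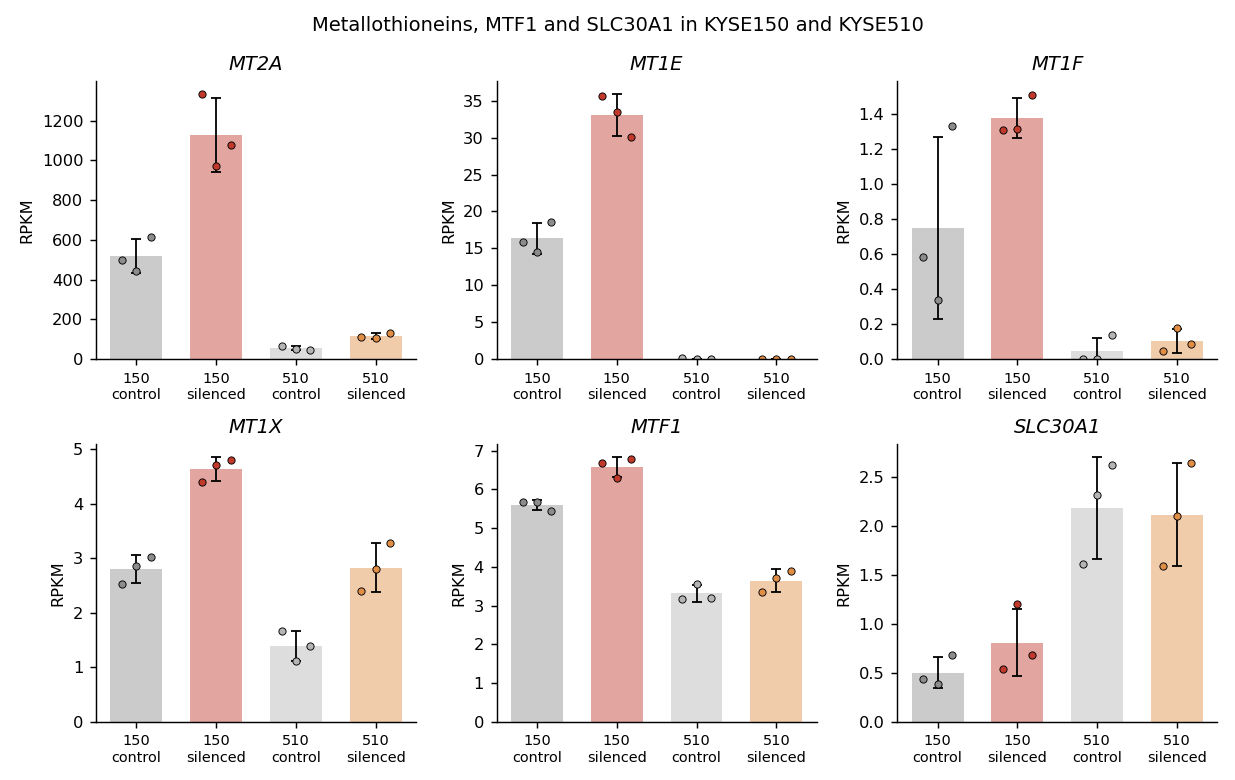
RPKM (vertical axis, linear, from 0, with its own scale in each panel) of 6 genes in the 4 groups, with bars for means, error bars for SD (n = 3) and points for libraries. MT2A and MT1X points of silenced libraries lie above all controls of the same line, MT1E is near 0 in KYSE510, and SLC30A1 is the only gene drawn that is higher in KYSE510.

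MT1E was the next metallothionein in KYSE150 and was almost absent from KYSE510. KYSE150 controls held 15.9, 14.5 and 18.6 RPKM and silenced libraries 35.7, 33.5 and 30.1, with no overlap. The means were 16.3 ± 2.06 and 33.1 ± 2.80 (SD, n = 3), a ratio of 2.02, with pair ratios of 1.62 to 2.30. In KYSE510 it had 2 reads in control replicate 1, an RPKM of 0.0790, and 0 reads in the other 5 libraries. A change with silencing was therefore not measurable for MT1E in KYSE510. In KYSE150 the log2 change was 0.999 (SE 0.11).

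MT1F was low in both lines. KYSE150 controls held 0.581, 0.335 and 1.33 RPKM and silenced libraries 1.31, 1.31 and 1.51, from 13 to 77 reads. Control replicate 3 reached the level of the silenced libraries, so the groups overlapped, and the pair ratios ran from 1.14 to 3.92. The log2 change there was 0.67 (SE 0.24), or 0.42 without control replicate 2. In KYSE510 MT1F had 0, 0 and 7 reads in controls and 2, 7 and 4 in silenced libraries, and the log2 change was 0.15 (SE 0.24).

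MT1G and MT1M were at or near 0 throughout. MT1G had 1 read in KYSE150 silenced replicates 2 and 3 and 0 reads in the other 10 libraries. MT1M had 0 reads in all 12 libraries, and 3 reads would have given 0.113 to 0.159 RPKM, which is the level its absence still allows by counting error. Of 14 further metallothionein genes and pseudogenes, 8 were in the table, with 0 to 6 reads each over the 12 libraries, and 0 could be tested.

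The metallothionein transcripts of both lines were thus nearly all MT2A. It made up 96.1% to 97.0% of the summed RPKM of the 6 metallothioneins in KYSE150 libraries and 96.9% to 97.8% in KYSE510. MT1E was 2.60% to 3.31% of the sum over the control and silenced libraries of KYSE150. The sum itself spanned 460 to 637 RPKM over KYSE150 controls and 1012 to 1374 over its silenced libraries, against 48.8 to 68.9 and 106 to 134 for KYSE510. RPKM divides by all annotated exon bases (1299 for MT2A, 1052 for MT1E, 1889 for MT1F and 1773 for MT1X), which are more than the spliced messages hold, so shares depend on that annotation.

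MT1X, another zinc-binding isoform, was higher in silenced than control libraries of both lines, with no overlap in either. KYSE150 controls held 2.53, 2.86 and 3.03 RPKM and silenced libraries 4.40, 4.72 and 4.81. KYSE510 controls held 1.66, 1.12 and 1.39, and the silenced libraries 2.40, 2.80 and 3.29. The KYSE150 means were 2.81 ± 0.252 and 4.64 ± 0.216 (SD, n = 3), a ratio of 1.65, and the KYSE510 means 1.39 ± 0.274 and 2.83 ± 0.445 (SD, n = 3), a ratio of 2.03. These values rest on 50 to 236 reads a library. The log2 changes were 0.64 (SE 0.13) and 0.82 (SE 0.13).

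AC026461.1 had nearly the same reads as MT1X. KYSE150 controls held 7.43, 8.93 and 8.95 RPKM of it and silenced libraries 13.5, 14.8 and 14.5. The KYSE510 controls held 5.13, 3.52 and 4.35, and the silenced libraries 7.49, 8.77 and 9.48. Silenced libraries lay above controls in each line, with ratios of means of 1.69 and 1.98 and log2 changes of 0.73 (SE 0.13) and 0.92 (SE 0.13). Its 3 exons hold 551 bases, of which 321 are also MT1X exon and 230 are exon of the pseudogene DPPA2P4, leaving 0 of its own.

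The reads of AC026461.1 were 89.7% to 98.0% of those of MT1X in the same library, 1451 of 1528 over all 12, and MT1X had 1 to 15 more in each. DPPA2P4 had 1 read in all, so the reads of AC026461.1 came almost wholly from the bases it shares with MT1X. Whether the counting gave a shared read to both genes was read from the table itself. Among 341 genes whose exons lie wholly inside those of another gene on the same strand, 338 had reads, and in 341 of 341 the inner gene never had more reads than the outer one in any library. A shared read on the same strand was thus counted for each gene. On opposite strands the same held in 544 of 557 pairs, of which 546 had reads, so the use of strand is not settled. MT1X and AC026461.1 are therefore not independent measurements here but nearly the same reads, divided by 1773 and by 551 bases, and the 3-exon transcript itself was not separately measured.

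**Figure D2:**
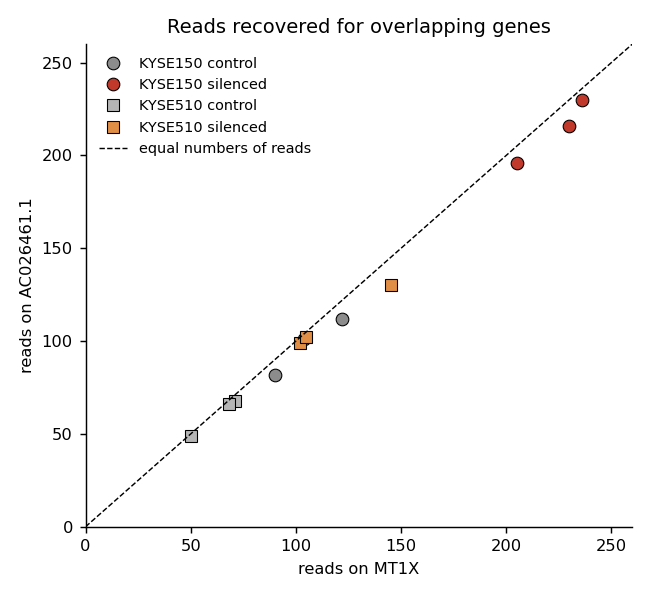
Reads recovered for AC026461.1 (vertical axis) against those for MT1X (horizontal axis) in each of 12 libraries, marked by line and group, with a dashed line of equal numbers. Every point lies just under the line, since MT1X had 1 to 15 more reads in each library; 1 KYSE150 control point (104 and 101 reads) is partly covered by a KYSE510 silenced point.

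MTF1, the zinc-sensing factor, showed small differences. KYSE150 controls held 5.68, 5.68 and 5.45 RPKM and silenced libraries 6.68, 6.30 and 6.78, a ratio of 1.18 with no overlap. The KYSE510 controls held 3.18, 3.57 and 3.20 and the silenced libraries 3.34, 3.70 and 3.90, where the groups overlapped and the ratio was 1.10. The log2 changes were 0.21 (SE 0.08) and 0.12 (SE 0.08). The first was 0.09 after centring each library and 0.10 after quantile normalization, and the second was 0.08 without KYSE510 silenced replicate 3.

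SLC30A1, the other classical MTF1 target, had overlapping groups in both lines. KYSE150 controls held 0.438, 0.383 and 0.684 RPKM and silenced libraries 0.542, 1.20 and 0.684. The KYSE510 controls held 1.61, 2.31 and 2.62 and the silenced libraries 1.59, 2.10 and 2.64. The ratios of means were 1.61 and 0.968. Silenced replicate 2 stood highest in KYSE150, and the highest pair ratio there was 3.13, against a range of 0.909 to 1.01 in KYSE510. The log2 changes were 0.37 (SE 0.22), or 0.16 without KYSE150 silenced replicate 2, and -0.04 (SE 0.22), and the KYSE510 value took the other sign without control replicate 2 (0.00547), control replicate 3 (0.08) or silenced replicate 1 (0.11).

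Of the 9 genes, 7 passed the filter on low values (at least 0.5 RPKM in at least 3 libraries), MT1E and MT1F through KYSE150 libraries alone. In KYSE150, MT2A, MT1E, MT1X, AC026461.1 and MTF1 had all silenced libraries above all controls, which 13.7% of the genes tested had. In KYSE510, MT2A, MT1X and AC026461.1 did, against 5.22% of the genes tested, and 1.33% did in both lines. At limma's adjusted threshold of 0.05, MT2A, MT1E and AC026461.1 passed in KYSE150, where 0.499% of genes passed, and AC026461.1 in KYSE510, where 0.0393% passed. These counts restate the choice of genes, and nothing is read from them.

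Just outside that threshold in KYSE150 lay MT1X, with a log2 change of 0.64 against 0.73 for AC026461.1 just inside, from almost the same reads. In KYSE510 MT2A, with 1.06 (SE 0.17), lay outside and AC026461.1, with 0.92 (SE 0.13), inside. With a replicate block 4 genes passed in KYSE150, MT1X among them, where 6.70% of all genes passed, and 0 in KYSE510, where 0.112% did. Without KYSE150 control replicate 3 the number was 5, where 7.22% of all genes passed. It was 1 (MT1E) without control replicate 1, control replicate 2, silenced replicate 1 or silenced replicate 3 of KYSE150. In KYSE510 it was 0 whichever of the 12 libraries was left out. All these calls use the values that chose the genes, so nothing is read from them either.

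**Figure D3:**
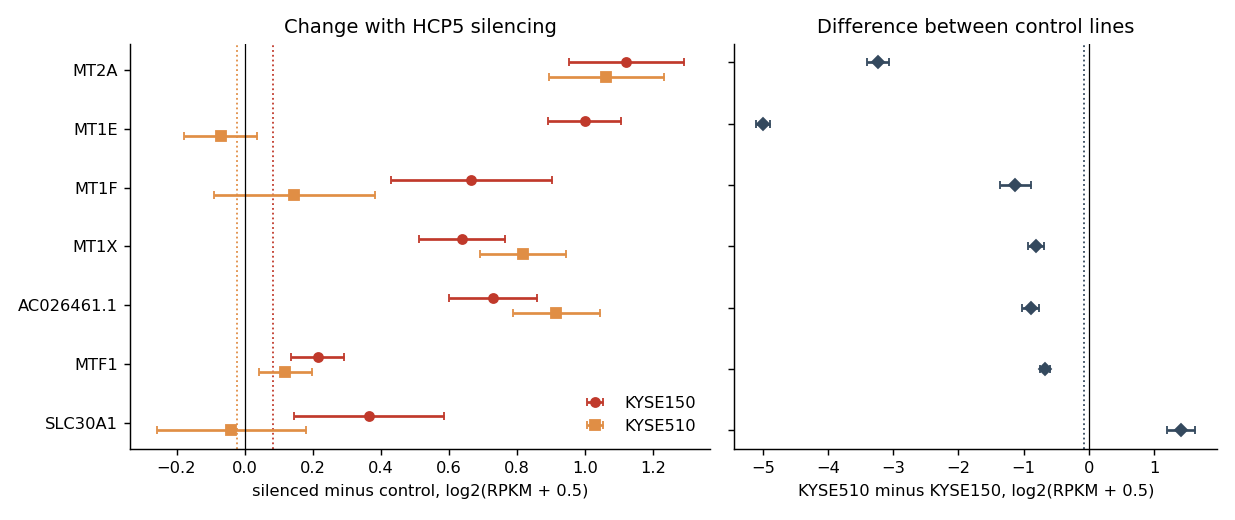
Left, log2 change with silencing (horizontal axis, log2(RPKM + 0.5)) in KYSE150 (circles) and KYSE510 (squares); right, KYSE510 minus KYSE150 controls; bars are 1 SE from the fit of 12 libraries and dotted lines are the median of all genes. MT2A, MT1X and AC026461.1 lie right of the dotted lines in both lines, and MT1E in KYSE150. Between control lines MT2A, MT1X, AC026461.1 and MTF1 lie left of 0, as do MT1E and MT1F, in the fit through KYSE150 alone.

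The control cells of the lines were compared next, a comparison that was not used to choose the set. The control libraries themselves were part of the values behind that choice. MT2A, MT1X, AC026461.1 and MTF1 were lower in KYSE510 controls than in KYSE150 controls, and SLC30A1 was higher. These 5 genes reached 0.5 RPKM in libraries of both lines, and all 5 passed. So did 58.1% of the 15638 genes of that kind, with 33.4% lower and 24.7% higher in KYSE510. A difference as such is common, and MT1X and AC026461.1 count the same reads. MT1E and MT1F entered the fit through KYSE150 libraries alone, so their difference was partly fixed by the filter and is given as reads with no test. Their calls are therefore not counted. Of all genes tested, 62.0% passed (33.7% lower and 28.3% higher). The log2 difference of MT2A was -3.23 (SE 0.17; limma adjusted p 2.6e-08), with 9.58 times as many reads in KYSE150 after scaling to library size (95% exact interval 9.31 to 9.85, for counting error only).

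MT1E had 1093 reads in the KYSE150 controls and 2 in the KYSE510 controls. After scaling to library size the ratio was 664, with a 95% exact interval of 183 to 5488. MT1F had 92 and 7 reads, a ratio of 15.96 (7.44 to 40.8). MT1X differed by -0.81 (SE 0.13; limma adjusted p 0.000175), a read ratio of 2.03 (1.69 to 2.44). These exact intervals cover counting error only, not the spread between libraries, so no comparison between genes is drawn from them.

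MTF1 differed by -0.68 (SE 0.08; limma adjusted p 1.7e-05), from 5.60 ± 0.135 RPKM in KYSE150 to 3.32 ± 0.216 in KYSE510 controls (SD, n = 3). SLC30A1 went the other way, from 0.501 ± 0.160 to 2.18 ± 0.519 (SD, n = 3), a log2 difference of 1.41 (SE 0.22; limma adjusted p 0.000173), or 2.12 with voom on recovered reads. Every KYSE510 control lay above every KYSE150 control for SLC30A1, and below every one for MT2A. Per length, the order of levels in KYSE150 controls was MT2A, MT1E, MTF1, MT1X, MT1F and SLC30A1, where the last pair overlapped. In KYSE510 controls it was MT2A, MTF1, SLC30A1, MT1X, MT1F and MT1E, where SLC30A1 and MT1X overlapped and the last pair was at or near 0 reads.

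The other zinc transporters were taken as whole families. Most SLC30A exporters move zinc out of the cytoplasm. Besides SLC30A1, 4 of 9 were tested and 0 passed in either line, with 0 also under the replicate block. Their median log2 change was 0.25 in KYSE150, led by SLC30A5 (0.47, SE 0.19), SLC30A7 (0.30, SE 0.14) and SLC30A6 (0.20, SE 0.13), and -0.10 in KYSE510. Without KYSE150 control replicate 2 these 3 values were 0.24, 0.20 and 0.12. SLC30A5 was at 0.72 and passed without control replicate 3 (limma adjusted p 0.0282), where 7.22% of all genes passed. All 4 were above 0 in KYSE150 and below 0 in KYSE510, and their difference of change between lines did not pass for any of the 4. Between control lines SLC30A9 (-1.78, SE 0.11; limma adjusted p 1.3e-07) and SLC30A7 (-0.57, SE 0.14; limma adjusted p 0.00363) were lower in KYSE510, and SLC30A5 had -0.42 (SE 0.19), or -0.65 without KYSE150 control replicate 2, where it passed (limma adjusted p 0.00397), and -0.17 without control replicate 3.

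The SLC39A importers bring zinc into the cytoplasm, and 11 of 14 were tested. SLC39A6 rose in KYSE150 from 13.6 ± 0.969 to 20.4 ± 1.02 RPKM (SD, n = 3), a log2 change of 0.57 (SE 0.08; limma adjusted p 0.0112), where 0.376% of genes passed as higher. In KYSE510 it was 83.2 ± 4.16 in controls and 96.9 ± 5.94 in silenced libraries (SD, n = 3; log2 change 0.22, SE 0.08; limma adjusted p 0.618). Its call in KYSE150 was lost with the 6 libraries of the line alone (0.155), after centring each library (0.0689), and without control replicate 2 (0.0623) or silenced replicate 3 (0.0639), as limma adjusted p-values. SLC39A3 (0.55, SE 0.19) and SLC39A14 (0.41, SE 0.12) came next, and SLC39A3 passed with the replicate block (limma adjusted p 0.0423). Without KYSE150 control replicate 3 SLC39A3 (0.0288) and SLC39A14 (0.0328) passed, as limma adjusted p-values. The median change of the 11 was 0.13 in KYSE150 and -0.06 in KYSE510.

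Between control lines 10 importers had levels in both, with 6 higher and 2 lower in KYSE510. Of all genes with levels in both lines, 24.7% passed as higher and 33.4% as lower. SLC39A6 was higher by 2.57 (SE 0.08; limma adjusted p 2.7e-10) and SLC39A8 by 1.88 (SE 0.09; limma adjusted p 1.7e-08). SLC39A4, an importer of dietary zinc, passed the filter through KYSE510 alone and is given with no test, at 0.0217 ± 0.0103 RPKM in KYSE150 and 2.04 ± 0.340 in KYSE510 controls (SD, n = 3).

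Genes that handle copper, which metallothioneins also bind, and iron gave 0 of 12 passing in either line. The largest values in KYSE150 were SLC31A2, a copper transporter of endosomes (0.77, SE 0.20), FTL, the ferritin light chain (0.37, SE 0.23), and TFRC, the transferrin receptor (0.30, SE 0.19). SLC31A2 passed with the replicate block (limma adjusted p 0.0163) and without KYSE150 control replicate 3 (limma adjusted p 0.0220). FTL ran from 0.18 without silenced replicate 3 to 0.64 without control replicate 3, and TFRC was at 0.12 without control replicate 2. The medians were 0.14 in KYSE150 and -0.09 in KYSE510. For the control lines, 24.7% of all genes with levels in both passed as higher in KYSE510 and 33.4% as lower. Between control lines FTL (4.25, SE 0.23; limma adjusted p 3.1e-08) and TFRC (1.38, SE 0.19; limma adjusted p 5.9e-05) were higher in KYSE510, and the copper chaperone ATOX1 (-1.20, SE 0.08; limma adjusted p 2.6e-07) was lower, among 6 higher and 3 lower of 11 with levels in both lines.

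Glucocorticoid receptor and target genes had 9 tested and 0 passing in either line. Their median change was 0.37 in KYSE150, where values ran from 0.03 to 0.54, and 0.01 in KYSE510. Over all genes the medians were 0.08 and -0.02. After centring each library the KYSE150 median was 0.245, beside -0.05 over all genes. DUSP1 (0.54, SE 0.32), CEBPD (0.46, SE 0.29) and NFKBIA (0.42, SE 0.10) had the largest values in KYSE150. Without KYSE150 control replicate 2 DUSP1 was at 0.34 and CEBPD at 0.23, and CEBPD was at 0.76 without control replicate 3. With the replicate block NFKBIA and SGK1 passed (limma adjusted p 0.0367 and 0.0404). NFKBIA also passed without KYSE150 control replicate 3 (0.0372) or KYSE510 control replicate 1 (0.0383), as limma adjusted p-values. Among all genes with levels in both control lines, 24.7% passed as higher in KYSE510 and 33.4% as lower. Between control lines NFKBIA (2.03, SE 0.10; limma adjusted p 1.5e-08), CEBPD (1.39, SE 0.29; limma adjusted p 0.00146) and SGK1 (1.29, SE 0.20; limma adjusted p 0.000181) were higher in KYSE510, among 3 higher and 1 lower of 8 with levels in both lines.

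Oxidative stress genes, here NFE2L2 with its regulator KEAP1 and targets, stood near 0 in KYSE150. None of 10 passed in either line. The median change was -0.00 in KYSE150 and -0.22 in KYSE510, where values ran from -0.51 to 0.08. Over all genes the medians were 0.08 and -0.02. KEAP1 (0.18, SE 0.08), TXNRD1 (-0.16, SE 0.12) and NFE2L2 (0.15, SE 0.10) had the largest values in KYSE150, and TXNRD1 was at -0.04 without control replicate 2. Among all genes with levels in both control lines, 24.7% passed as higher in KYSE510 and 33.4% as lower. Between control lines 8 were higher and 1 lower in KYSE510, led by SLC7A11, the cystine importer (2.55, SE 0.22; limma adjusted p 1.4e-06), GCLM of glutathione synthesis (1.32, SE 0.10; limma adjusted p 5.9e-07) and TXNRD1 (1.24, SE 0.12; limma adjusted p 4.3e-06).

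Neighbours of the cluster at 16q13 gave 0 of 9 passing in either line, with medians of 0.12 in KYSE150 and -0.07 in KYSE510. HERPUD1 (0.41, SE 0.16), CPNE2 (0.35, SE 0.17) and NUDT21 (0.28, SE 0.09) had the largest values in KYSE150, and CPNE2 and NUDT21 passed with the replicate block (limma adjusted p 0.0412 and 0.0463). CPNE2 was at 0.22 without KYSE150 control replicate 1 and 0.21 without silenced replicate 3. For the control lines, 33.4% of all genes with levels in both passed as lower in KYSE510 and 24.7% as higher. Between control lines 6 of the 8 with levels in both were lower in KYSE510, among them CPNE2 (-1.41, SE 0.17; limma adjusted p 2.0e-05) and OGFOD1 (-0.87, SE 0.09; limma adjusted p 6.7e-06). GNAO1 passed the filter through KYSE510 alone and is given with no test, at 0.0238 ± 0.0163 RPKM in KYSE150 and 1.08 ± 0.154 in KYSE510 controls (SD, n = 3).

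**Figure D4:**
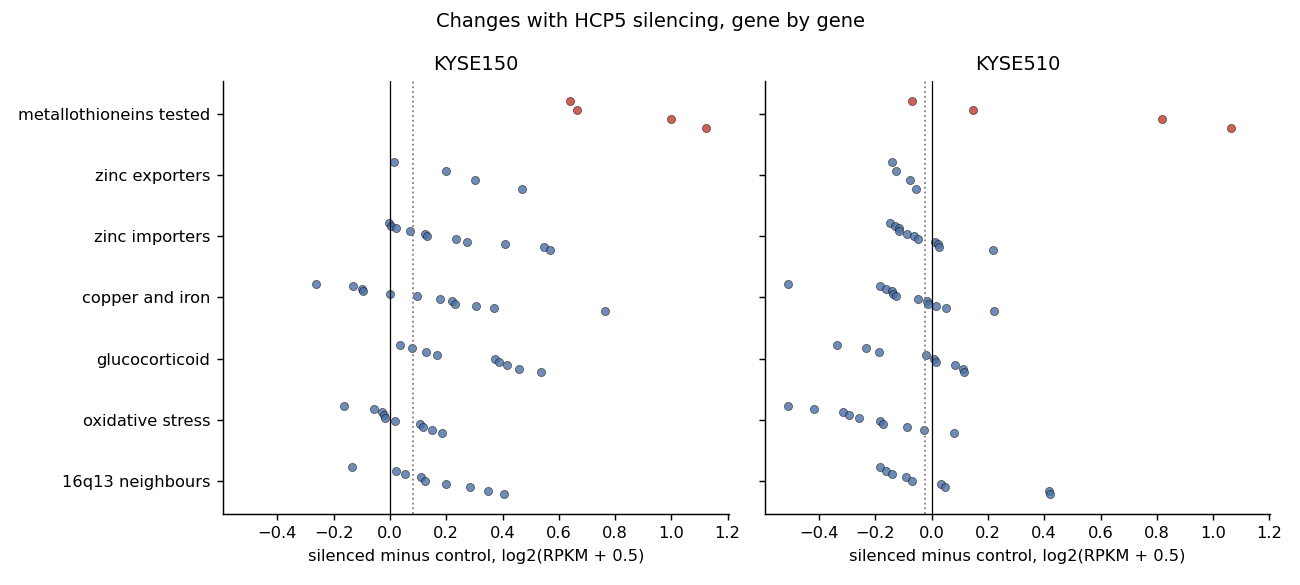
Log2 change with silencing (horizontal axis, log2(RPKM + 0.5)) of each tested gene, 1 point a gene, in rows by list, for KYSE150 and KYSE510; the dotted line is the median of all genes. The 4 metallothioneins lie at 0.64 to 1.12 in KYSE150, while KYSE510 spans -0.07 to 1.06, values with which the set was chosen.

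The genes whose levels most followed MT2A over the libraries were found with log2 values centred on the mean of each line, among 14027 genes with a mean of at least 1 RPKM. They were COL17A1, a collagen of hemidesmosomes (Pearson r 0.96), ANAPC13, a subunit of the anaphase-promoting complex (0.95), CAMSAP2, a microtubule minus-end protein (0.95), SRP19 of the signal recognition particle (0.95) and MT1X (0.93). The 12 points share their treatment groups, libraries and scaling, so these values are a description. AC026461.1 stood at rank 8 (0.93), MTF1 at rank 237 (0.77), MT1E at rank 510 (0.68, and 0.98 within the 6 KYSE150 libraries) and SLC30A1 at rank 4840 (0.22).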

How the data were processed

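The authors deposited RPKM values per gene for 12 libraries, with exon positions and lengths in columns as featureCounts writes them, per the file headers. GRCh38, HISAT2 and DESeq are named in the submitters' processing notes, with no role given. The annotation release and use of strand are not given in the sources used here. RPKM multiplied by exon length gave whole reads in 100% of values (tolerance 0.01), which supplied reads and exact 95% intervals for counting error. Reads were not corrected for PCR copies.

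Values were fitted as log2(RPKM + 0.5), which understates changes of low genes, with limma 3.58.1 in R 4.3.3: 4 group means over 12 libraries, eBayes with trend, 8 residual degrees of freedom, 17823 genes with at least 0.5 RPKM in at least 3 libraries, two-sided, Benjamini-Hochberg, threshold 0.05. The fit was tested on simulated data. Replicate numbers come from the titles. Deviations from group means correlated at 0.147 to 0.415 in 6 same-numbered control and silenced pairs and at -0.385 to 0.184 in 12 others. These ranges overlap, and deviations within a group cancel, which ties the ranges to each other. Pairing within a line is therefore possible but not settled. The main fit and the SE values have no block. Blocked values (4 residual degrees of freedom) are printed where they change a call.

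The genes and lists were chosen with earlier results of these data known. Named list genes are those past the threshold with silencing, plus up to 3 with the largest change in KYSE150 and up to 3 with the largest difference between control lines. The 5 genes most like MT2A were also named. Sequences are from GENCODE release 29 and RefSeq (GRCh38.p14).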

Additional observations from a re-analysis of the deposited data

How the results depend on the processing

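Between control lines MT2A, MT1X, AC026461.1, MTF1 and SLC30A1 kept sign and call under each of 20 alternatives. MT1X and AC026461.1 count nearly the same reads there. MT1E and MT1F, in the fit through KYSE150 alone, are not counted. With silencing, the number of the 9 genes passing in KYSE150 was 3, and it was 1 with a pseudocount of 0.1, 0 with the 6 libraries of the line alone, 4 with the replicate block and 1 to 5 when leaving out a library. The same fits passed 61, 7, 1194 and 15 to 1287 of all genes. In KYSE510 the number of the 9 was 1, and 0 with a pseudocount of 0.1, eBayes without trend, the line alone, centred libraries, the replicate block or any library left out. There 3, 6, 0, 8, 20 and 2 to 7 of all genes passed. The silencing counts for the 9 genes use the values that chose them, so nothing is read from these counts. The difference between lines passed in 0 of the 9 genes, and in 0 to 1 when leaving out a library. The 1 was MT1E without KYSE150 control replicate 3, and its KYSE510 change was not measurable. Over the whole table limma passed 0 genes for the difference between lines (2181 at an unadjusted p below the threshold), as did the block (4610). The KYSE510 change of SLC30A1 reversed to 0.00547, 0.08 and 0.11 without control replicate 2, control replicate 3 and silenced replicate 1, in a range of -0.20 to 0.11 when leaving out a library. Of 147 values in each line, 122 in KYSE150 and 125 in KYSE510 kept sign and call. Over all genes 89 passed in KYSE150 (7 to 1287, with 1194 under the block) and 7 in KYSE510 (0 to 44, with 20 under the block). Centring moved the KYSE150 median of all genes from 0.08 to -0.05 and that of the 7 genes from 0.67 to 0.54. The cause of these changes was not tested. Voom on recovered reads was added after seeing the data; with it the 1 gene passing in KYSE510 was MT2A, not AC026461.1. Count tests with edgeR and DESeq2 were planned and not run, since the deposited unit is RPKM. Depth limits MT1F, MT1G, MT1M and, in KYSE510, MT1E.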
